A study of Rattus norvegicus with 60 samples.

Results

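Gene expression in the hippocampus was compared between rats of a congenic line and rats of the NP line, on 9 of the 60 arrays of the series. NP is a line of Rattus norvegicus bred for not preferring alcohol, and the congenic line, NP.P, carries a segment of chromosome 4 from the alcohol-preferring P line on the NP background. That much of the segment is general knowledge of these strains; the labels give neither the bounds of that segment nor the sex of the rats, and describe all of them as adult. Rats of both lines were housed in pairs with free food and water, were handled daily for 10 days, and were killed by decapitation. No alcohol or drug is named in the labels. Rats were not pooled, and each array is 1 animal. The question of the series is which genes are candidates for alcohol preference, and here it was asked of the hippocampus alone.

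Of the 12 arrays labelled hippocampus, those of congenic animals 1, 2, 4, 9 and 10 and of NP animals 5, 6, 7 and 12 were compared, 5 against 4. The arrays of congenic animal 3 and of NP animals 8 and 11 were left out. The values are the authors' log2 signals of probe sets, the array's groups of short probes that each read 1 or more transcripts. A difference is given as the congenic minus the NP mean. A probe set was called where limma's adjusted p was under 0.05 over the 18625 probe sets tested. The signal of a probe set depends on the level of its transcripts and on how well the probes match them. Whether the lines differ in sequence under the probes was not tested, so "rose" and "fell" refer to signal.

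The hippocampus is known for its part in memory of places and events and in the control of the stress response. Its principal neurons are the granule cells of the dentate gyrus and the pyramidal cells of the CA fields, which are joined in a chain of excitatory synapses and held in check by interneurons. A congenic strain shares the background of one line and differs from it mainly within the transferred segment, which is why such strains are used to narrow down a trait to a stretch of chromosome.

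The 9 arrays carried the profile of the hippocampus. Prox1, a transcription factor that defines dentate granule cells, had a mean log2 signal of 11.04 ± 0.07 in NP (SD, n = 4) and of 11.14 ± 0.28 in congenic rats (SD, n = 5), against means of 8.68 to 8.80 in the other 4 regions. Each array's profile, its deviation from the mean of the regions, correlated with that of the hippocampus at 0.800 to 0.910. On the array of congenic animal 3 that correlation was -0.01, and it was 0.742 with the amygdala. Prox1 read 8.91 there, and Pmch, the precursor of the hypothalamic peptide melanin-concentrating hormone, read 13.68 against 7.31 to 7.63 on the 9 arrays. On the array of NP animal 8 the correlation was -0.21, and it was 0.388 with the accumbens and 0.378 with the amygdala. Prox1 read 8.71, and Drd1, the dopamine receptor of medium spiny neurons of the striatum, read 12.42 against 7.88 to 8.54. The array of NP animal 11 kept a hippocampal profile (0.578, Prox1 11.12), but its probe set for the 5' end of hexokinase, a control for the length of the copied RNA, read 7.16 against 8.97 to 9.53 on the 9 arrays.

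**Figure D1:**
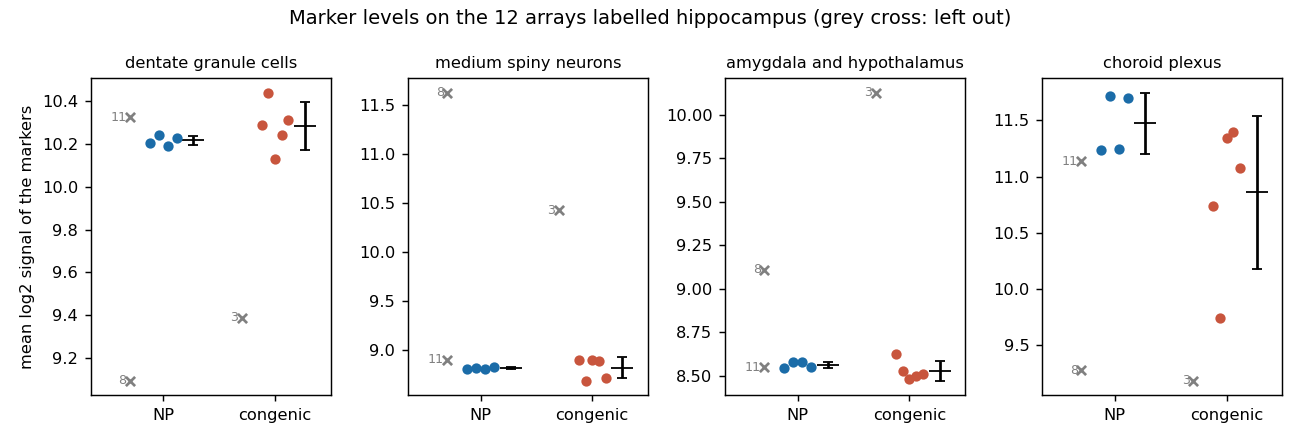
Mean log2 signal of the markers of dentate granule cells, medium spiny neurons, amygdala and hypothalamus, and choroid plexus on each of the 12 arrays labelled hippocampus, by line, with bars for the mean and SD of the arrays used. Grey crosses are the arrays left out, with their animal number: congenic 3 and NP 8 lie below all used arrays for granule cells and above them for medium spiny neurons (10.42 and 11.62 against 8.69 to 8.90).

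Between the lines, 7 of the 18625 probe sets tested differed in the hippocampus (0.0376%), 3 of them higher (0.0161%) and 4 lower (0.0215%) in congenic rats. The 3 that carry a gene symbol, Ppm1k, Zfp956 and Snx10, all lie on chromosome 4. That is 3 of the 806 tested probe sets of named chromosome 4 genes (0.372%), while limma called 0 of 13179 on other chromosomes (0%), where 919 (6.97%) had an unadjusted p under 0.05, as did 75 (9.31%) on chromosome 4. The other 4 called probe sets carry no symbol in the table used. At an unadjusted p under 0.05 there were 1448 probe sets (7.77%), 867 higher (4.66%) and 581 lower (3.12%), and in 403 (2.16%) the values of the lines did not overlap. The unadjusted count ranged from 942 (without congenic 2) to 3776 (without congenic 9) when 1 array was left out. Its balance turned to 1106 higher and 1497 lower without the signal filter, and was 681 to 647 after quantile normalization and 649 to 203 with a filter at the 60th percentile. The median standard error of a difference was 0.07 log2 units. Within each line, p-values rest on 4 or 5 animals.

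Ppm1k encodes a phosphatase of the mitochondrion that removes the phosphate from the enzyme complex breaking down branched-chain amino acids, and so switches it on. Its probe set 1394939_at read 8.89, 9.14, 8.64 and 9.09 in NP animals 5, 6, 7 and 12. In congenic animals 1, 2, 4, 9 and 10 it read 7.73, 7.53, 7.70, 7.90 and 7.63. The lowest NP value lay 0.741 above the highest congenic value. The gene fell by 1.24 ± 0.10 on the log2 scale (SE), 2.36-fold, with limma's adjusted p = 2.12e-04. The other probe set of Ppm1k, 1388778_at, differed by -0.26 ± 0.06 and was not called (adjusted p = 0.530), although its lines did not overlap either: 10.51 to 10.57 in NP and 10.12 to 10.35 in congenic rats. The probe sets of 1 gene thus gave differences of unequal size in the same direction.

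Of 21 measured genes of branched-chain amino acid breakdown, Ppm1k was the only one called, and the list's median difference was 0.00, beside 0.01 over all genes. Bcat1 and Bcat2, the transaminases that take the first step, differed by 0.22 ± 0.14 and -0.11 ± 0.10. Dbt and Dld, subunits of the complex that Ppm1k acts on, differed by 0.07 ± 0.05 each. None of these 4 passed the test, and their lines overlapped.

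Zfp956, a zinc finger gene with 1 probe set tested, read 8.31, 8.30, 8.10 and 8.36 in the 4 NP animals, in the order given above. It read 8.80, 8.73, 8.88, 8.70 and 8.66 in the 5 congenic animals. All congenic values lay above all NP values, with 0.303 between them. The gene rose by 0.49 ± 0.07 log2 units, 1.40-fold (limma adjusted p = 0.0239).

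Snx10 encodes a sorting nexin, a protein that binds membrane lipids of endosomes and takes part in moving cargo between them. Probe set 1379275_at read 10.34, 10.26, 10.19 and 10.14 in NP and 10.58, 10.66, 10.79, 10.87 and 10.69 in congenic rats. The lines were 0.236 apart, and the difference was 0.48 ± 0.07 log2 units, 1.40-fold (limma adjusted p = 0.0297). The other probe set of the gene, 1383585_s_at, read more signal but did not follow: its difference was -0.08 ± 0.07 (adjusted p = 0.743), with overlapping lines. Snx10 was the only called gene of 23 measured sorting nexins. Snx6, a subunit of the coat that returns receptors from endosomes, differed by -0.17 ± 0.08, and the list's median was 0.03.

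Zfp956 and Snx10, the called genes that rose, are shown with the sequence around their annotated starts. That their called probe sets read higher in the same animals follows from the calls and does not link the genes. The other Snx10 probe set did not rise. For Ppm1k no such sequence was available. The windows hold 250 bases before and 50 after the start, from RefSeq on GRCr8, both on the plus strand, at chr4:78286100-78286399 for Zfp956 and at chr4:81943073-81943372 for Snx10. GRCr8 is the reference genome and neither of the lines compared. Capitals mark matches to CCAAT and GGGCGG, searched on both strands with TATAAA and TGACGTCA.
Zfp956: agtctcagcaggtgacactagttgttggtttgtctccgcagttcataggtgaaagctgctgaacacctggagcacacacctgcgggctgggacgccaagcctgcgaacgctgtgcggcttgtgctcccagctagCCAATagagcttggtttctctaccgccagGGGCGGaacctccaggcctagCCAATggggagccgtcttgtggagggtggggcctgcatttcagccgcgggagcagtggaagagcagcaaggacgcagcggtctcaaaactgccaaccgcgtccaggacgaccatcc
Snx10: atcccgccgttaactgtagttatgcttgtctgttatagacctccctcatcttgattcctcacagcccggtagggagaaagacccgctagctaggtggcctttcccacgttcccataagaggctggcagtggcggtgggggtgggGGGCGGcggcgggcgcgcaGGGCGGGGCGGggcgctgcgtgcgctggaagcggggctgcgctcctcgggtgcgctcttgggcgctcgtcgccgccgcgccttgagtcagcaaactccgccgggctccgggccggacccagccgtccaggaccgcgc
The Zfp956 window held 2 matches to CCAAT and 1 to GGGCGG, and that of Snx10 held 3 to GGGCGG, overlapping ones included. Neither held TATAAA or TGACGTCA. Of 33469 promoters of this length, 37.5% held CCAAT, 33.1% GGGCGG, 14.2% TATAAA and 1.83% TGACGTCA. A match is a string of letters and was not tied to any measurement here.

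The largest differences came from probe sets without a symbol. Probe set 1395714_at read 11.09, 11.11, 10.80 and 11.38 in NP and 6.97, 6.93, 7.10, 6.65 and 6.97 in congenic rats. It fell by 4.17 ± 0.11 on the log2 scale, 18.0-fold (limma adjusted p = 1.14e-09). Probe set 1391305_at read 9.32, 9.29, 8.99 and 9.54 in NP and 6.25, 6.45, 6.83, 6.52 and 6.84 in congenic rats, and fell by 2.71 ± 0.13, 6.55-fold (adjusted p = 7.69e-07). All congenic values of both lay under 7.68, the mean signal that a probe set needed to be tested, while all NP values lay above it. Whether the congenic signals were above background cannot be told from these values.

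Changes of the other unnamed probe sets were smaller. Probe set 1383058_at read 10.63 to 10.70 in NP and 10.10 to 10.31 in congenic rats, and fell by 0.44 ± 0.05 (limma adjusted p = 0.0114). Probe set 1378742_at read 8.26 to 8.45 in NP and 8.79 to 9.22 in congenic rats, and rose by 0.65 ± 0.09 (adjusted p = 0.0239). In each of the 7 called probe sets every congenic array lay on 1 side of every NP array.

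**Figure D2:**
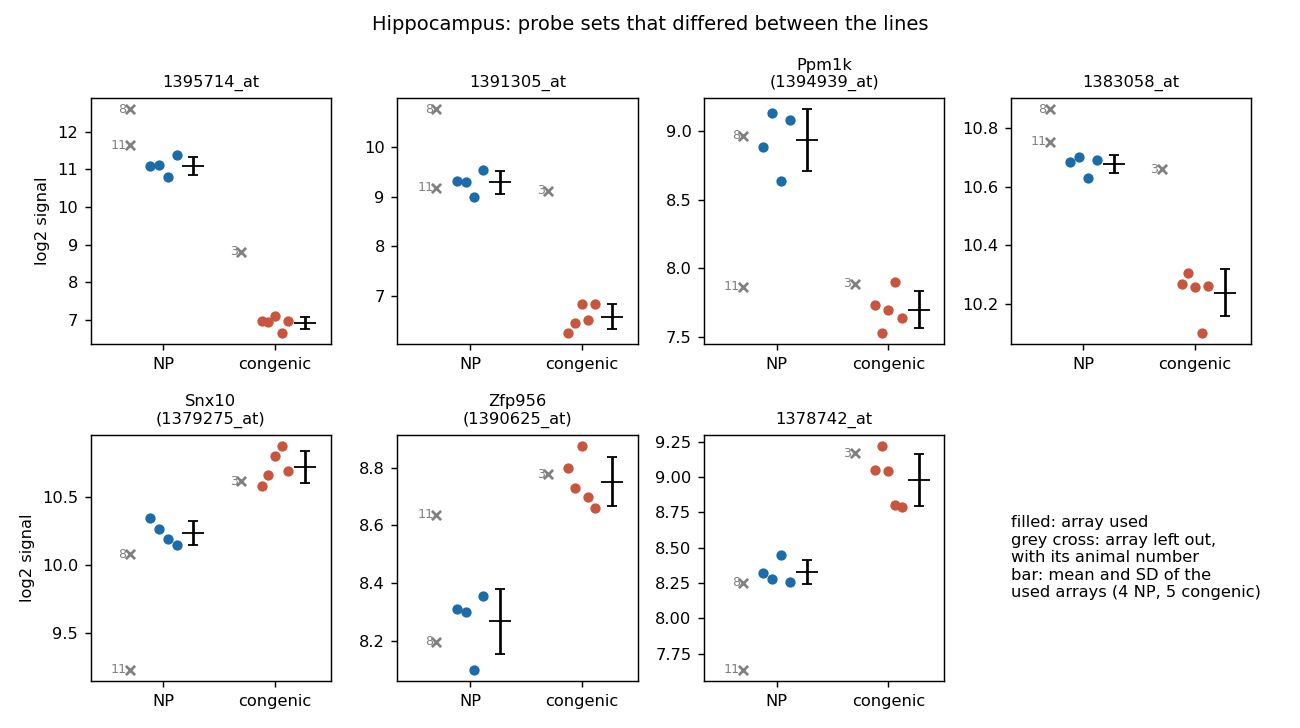
Log2 signal of the 7 called probe sets on each array, by line, with bars for the mean and SD of the arrays used (4 NP and 5 congenic); the axes do not start at 0. Grey crosses are the arrays left out, with their animal number: NP 11 lies within the congenic range for Ppm1k (7.87) and below both lines for Snx10 (9.23).

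With the arrays left out put back, fewer differences passed the test. On all 12 arrays only 1395714_at was called, 1 of 18625 (0.00537%), while the count at an unadjusted p under 0.05 was 735 (3.95%). The difference of Ppm1k was then -1.03 (limma adjusted p = 0.305), that of Zfp956 0.44 (adjusted p = 0.305), that of Snx10 0.66 (adjusted p = 0.982) and that of 1391305_at -2.52 (adjusted p = 0.305). All 7 probe sets kept their direction. Over all alternatives in which it was tested, 1395714_at was called in 24 of 24, 1391305_at in 21 of 23 (adjusted p from 3.62e-12 to 0.655), Ppm1k in 21 of 23 (1.25e-10 to 0.621), Zfp956 in 12 of 23 (1.38e-04 to 1.00) and Snx10 in 10 of 24 (0.00368 to 1.00). The alternative with a threshold of 0.10 repeated the main fit, so every called probe set passed it in advance.

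The 3 arrays did not act alike. With only NP 8 put back, the same 7 probe sets were called. With only congenic 3 put back, 4 were called: 1395714_at, Ppm1k, Zfp956 and 1378742_at. The array of congenic 3 read 9.12 at 1391305_at, within the NP range of the hippocampus, and 8.81 at 1395714_at, between the lines. It read 7.89, 8.78 and 10.61 at Ppm1k, Zfp956 and Snx10, within the congenic range of the hippocampus. Its profile was closest to the amygdala, where 1391305_at read 10.52 to 11.31 in NP and 6.73 to 8.36 in congenic rats. Against those ranges the 9.12 lay between the lines. With only NP 11 put back, 3 were called, 1395714_at, 1391305_at and 1383058_at, and no named gene. The array of NP 11 read 7.87 at Ppm1k, inside the congenic range, and 8.64 at Zfp956, between the lines. At Snx10 it read 9.23 and at 1378742_at 7.64, below both lines, while at 1391305_at it read 9.18, inside the NP range. How far a low-quality or exchanged sample accounts for these values was not tested. On all 12 arrays with limma's array weights, which were 0.250 to 0.365 for the 3 arrays and 0.550 to 2.30 for the others, 6 of the 7 were called, all but Snx10.

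Calls also changed when single arrays were taken away. Leaving out each of the 9 arrays in turn left 3 to 12 calls, and 1395714_at, 1391305_at and Ppm1k were called each time. Zfp956 was called in 2 of 9 such fits (limma adjusted p from 0.0364 to 0.139), Snx10 in 2 (0.0273 to 0.193), 1378742_at in 4 (0.0147 to 0.158) and 1383058_at in 6 (0.00802 to 0.0949). Leaving out NP 5, NP 6 or NP 12 left 3 calls each, and leaving out congenic 9 left 12, among them Ahi1, Dusp7 and Hira, which lie on other chromosomes. Congenic 9 also had the lowest array weight of the 9 (0.550).

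Genes of chromosome 4 that missed the test were described by their place in the order of the 590 measured genes of that chromosome. Of the 98 genes from Akr1b1 (place 148) to Ppm1k (place 245), 3 were called. At an unadjusted p under 0.05 there were 21 (21.4%), 15 higher and 6 lower. Of the other 492 genes of the chromosome, limma called 0 and 46 (9.35%) had such a p, and of 9752 genes elsewhere 884 (9.06%), against 9.21% of all genes by their best probe set. The ends of this stretch were set by genes known from earlier results of these arrays, so the counts are a description. By chromosome, the share was 11.4% on chromosome 4 and 11.5% on chromosome 17, where no gene was called.

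Stmp1, at place 155, encodes a short protein of the mitochondrion. It read 8.33 to 8.47 in NP and 8.73 to 9.14 in congenic rats, with a difference of 0.49 ± 0.08 (limma adjusted p = 0.1001), and its other probe set gave -0.09 ± 0.07. Magi1, a scaffold protein of cell junctions at place 379, read 9.10 to 9.19 in NP and 9.42 to 9.88 in congenic rats. Its difference was 0.50 ± 0.09 (adjusted p = 0.182), and its other 3 probe sets gave 0.10, -0.07 and 0.03. For both genes the values of the lines did not overlap at 1 probe set only.

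On the lower side, Creb5, a transcription factor of the cyclic AMP response family at place 220, read 8.33 to 8.49 in NP and 7.96 to 8.27 in congenic rats (difference -0.30 ± 0.07, limma adjusted p = 0.628). Its probe sets 1378645_at and 1389761_at gave -0.07 ± 0.09 and -0.05 ± 0.08, with overlapping lines. Pot1, a protein of the telomere at place 119, differed by -0.34 ± 0.07 and, at its other probe set, by -0.25 ± 0.06, and at both the lines did not overlap (adjusted p = 0.530 and 0.628). Bpgm, the bisphosphoglycerate mutase at place 150, was also alike at both of its probe sets, with differences of 0.18 ± 0.05 and 0.20 ± 0.05 and no overlap (adjusted p = 0.628 each). Akr1b1, the aldose reductase that reduces glucose and other aldehydes, read 11.52 to 11.61 in NP and 11.64 to 11.80 in congenic rats (0.17 ± 0.05, adjusted p = 0.631). None of these 4 genes was called.

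Further genes of chromosome 4 had an unadjusted p under 0.05 without a call. Col1a2, a collagen of fibroblasts, had the highest difference of them, 0.56 ± 0.25 (limma adjusted p = 0.631), with overlapping lines. Cyp26b1, which breaks down retinoic acid, differed by 0.35 ± 0.14 and Dlx5, a homeobox gene of developing interneurons, by -0.27 ± 0.12, both with overlap. Adamts9, a protease of the matrix next to Magi1 in the gene order, differed by 0.30 ± 0.08 without overlap. Of the 10 highest and 10 lowest genes with an unadjusted p under 0.05, those not named here, Tcaf1, Cnot4, Lsm5, Cep41, Tulp3, Cd9, C1galt1, Tspan33 and Rpusd3, lay between -0.27 and 0.27, and of these the lines did not overlap at Tulp3 and Tspan33.

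**Figure D3:**
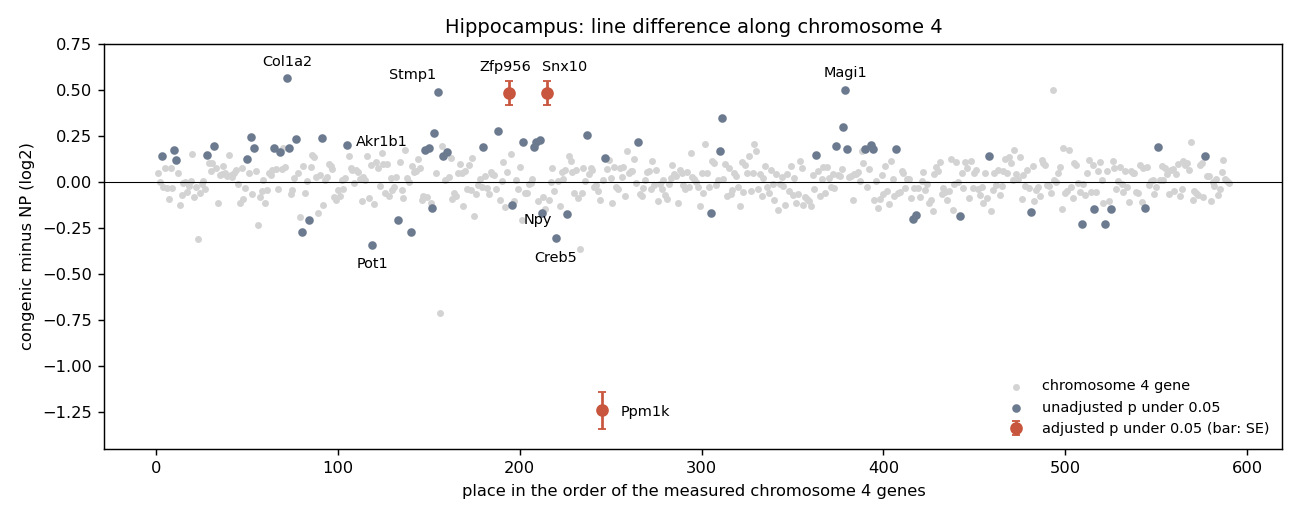
Difference between the lines in the hippocampus (congenic minus NP, log2) for the 590 measured genes of chromosome 4 in their order, with 1 probe set per gene. The 3 called genes (red, with SE bars) lie at places 194 (Zfp956), 215 (Snx10) and 245 (Ppm1k), and Magi1 at place 379 lies apart from them.

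Neuropeptide Y, a peptide of hippocampal interneurons with a known part in anxiety and alcohol intake, is encoded by Npy at place 210, between Zfp956 and Snx10. It read 11.41, 11.45, 11.32 and 11.38 in NP and 11.40, 11.37, 11.37, 11.08 and 11.21 in congenic rats. The lines overlapped, and the difference was -0.10 ± 0.07 (limma adjusted p = 0.684). Its receptors Npy1r and Npy5r differed by 0.08 ± 0.05 and 0.04 ± 0.07, and neither passed. Npy2r did not reach the signal limit for testing.

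The difference in the hippocampus was then set against the mean difference in accumbens, amygdala, frontal cortex and striatum, in a limma fit with the animal as a block. No probe set was called for that contrast (0% of 18625, smallest adjusted p = 0.271). At an unadjusted p under 0.05 there were 2130 (11.4%). The smallest p was that of Ppig, a cyclophilin that binds splicing factors, whose line difference was 0.26 in the hippocampus and exceeded that elsewhere by 0.40 ± 0.08. Next came Iqce (contrast -0.24 ± 0.05), the histone deacetylase Hdac2 (0.34 ± 0.08) and the potassium channel Kcnc4 (0.33 ± 0.08). Misp3 and Rbm27 (-0.30 ± 0.07 and -0.33 ± 0.08), Commd7 (0.27 ± 0.06), the histidine-tRNA ligase Hars2 (0.34 ± 0.08), the matrix proteoglycan Hspg2 (-0.37 ± 0.09) and the bicarbonate transporter Slc4a7 (0.31 ± 0.08) made up the 10 genes of smallest p. All 10 carried the same adjusted p of 0.271 and none is a call.

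In the other 4 regions together, 44 arrays, 34 probe sets differed between the lines (0.183%), by a fit chosen after the data were seen. In the hippocampus all 34 had the same sign of difference as there, while 47% of all tested probe sets did. Of the 34, 23 (67.6%) had an unadjusted p under 0.05 in the hippocampus, 22 (64.7%) did not overlap and 7 were called, which are the 7 called probe sets above. Over all 18625 probe sets tested, 7.77% had such a p, 2.16% did not overlap and 0.0376% were called. Hippocampus and other regions came from the same rats, so these counts do not come from separate animals. The contrast between hippocampus and the other regions had an unadjusted p under 0.05 for 4 of the 34, beside 11.4% of all probe sets tested. It was called for none.

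The 4 included 1395714_at, with a smaller difference in the hippocampus than in the other regions together (-4.17 against -4.75, limma contrast 0.64 ± 0.16, unadjusted p = 2.71e-04). Striatum was near the hippocampus, at -4.23, while accumbens, amygdala and frontal cortex were at -4.89, -5.12 and -4.85. The NP mean of 1395714_at was 11.09 in the hippocampus against 11.73 to 12.68 in the other regions, and its congenic mean was 6.92 against 7.21 to 7.60. Both lines thus read lowest in the hippocampus. Hnrnpa2b1, an RNA-binding protein, differed at 1378543_at by -0.15 ± 0.07 in the hippocampus and by -0.35 ± 0.04 elsewhere. Its brighter probe sets 1398883_at, 1373540_at and 1395561_at did not follow. They differed by 0.19, 0.07 and 0.06 in the hippocampus and by -0.02, -0.03 and -0.05 elsewhere. Pot1 differed by -0.34 and -0.21. The probe set 1390864_at differed by -0.04 ± 0.05 and -0.14 ± 0.03.

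At their called probe sets the 3 called genes had the same direction in every region. Ppm1k differed by -1.01 in accumbens, -1.39 in amygdala, -1.36 in frontal cortex and -1.04 in striatum, around the -1.24 of the hippocampus (contrast -0.02 ± 0.13). Snx10 differed at 1379275_at by 0.53 to 0.66 in the other regions and by 0.48 in the hippocampus (contrast -0.07 ± 0.09). Its other probe set, 1383585_s_at, lay on the opposite side, at -0.08 in the hippocampus and -0.18 in the other regions together. That probe set was called in neither (limma adjusted p = 0.743 and 0.387). Zfp956 differed by 0.26 in frontal cortex, 0.29 in striatum, 0.45 in accumbens and 0.56 in amygdala, and by 0.49 in the hippocampus (contrast 0.10 ± 0.08). None of the 3 contrasts passed, which does not show that the differences are equal.

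Some genes called elsewhere had smaller values in the hippocampus. Ggct, an enzyme of glutathione turnover, differed by -0.06 ± 0.14 against -0.30 ± 0.06 in the other regions, and Vopp1 by -0.02 ± 0.05 against -0.11 ± 0.02. Pdia4, a chaperone of the endoplasmic reticulum, differed by 0.11 ± 0.06 against 0.25 ± 0.04, and Wdr91 by -0.14 ± 0.06 against -0.23 ± 0.03. Dgki, a diacylglycerol kinase, differed by 0.16 ± 0.05 without overlap of the lines (9.00 to 9.12 in NP and 9.15 to 9.28 in congenic rats), against 0.26 ± 0.03. For Sos1, an activator of Ras on chromosome 6, and Repin1 on chromosome 4 the hippocampus had the larger values, 0.23 ± 0.06 and 0.22 ± 0.05 without overlap, against 0.20 ± 0.03 and 0.17 ± 0.03. The contrast of hippocampus and other regions was called for none of these genes, so a difference between regions is not shown. None of these genes was called in the hippocampus.

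**Figure D4:**
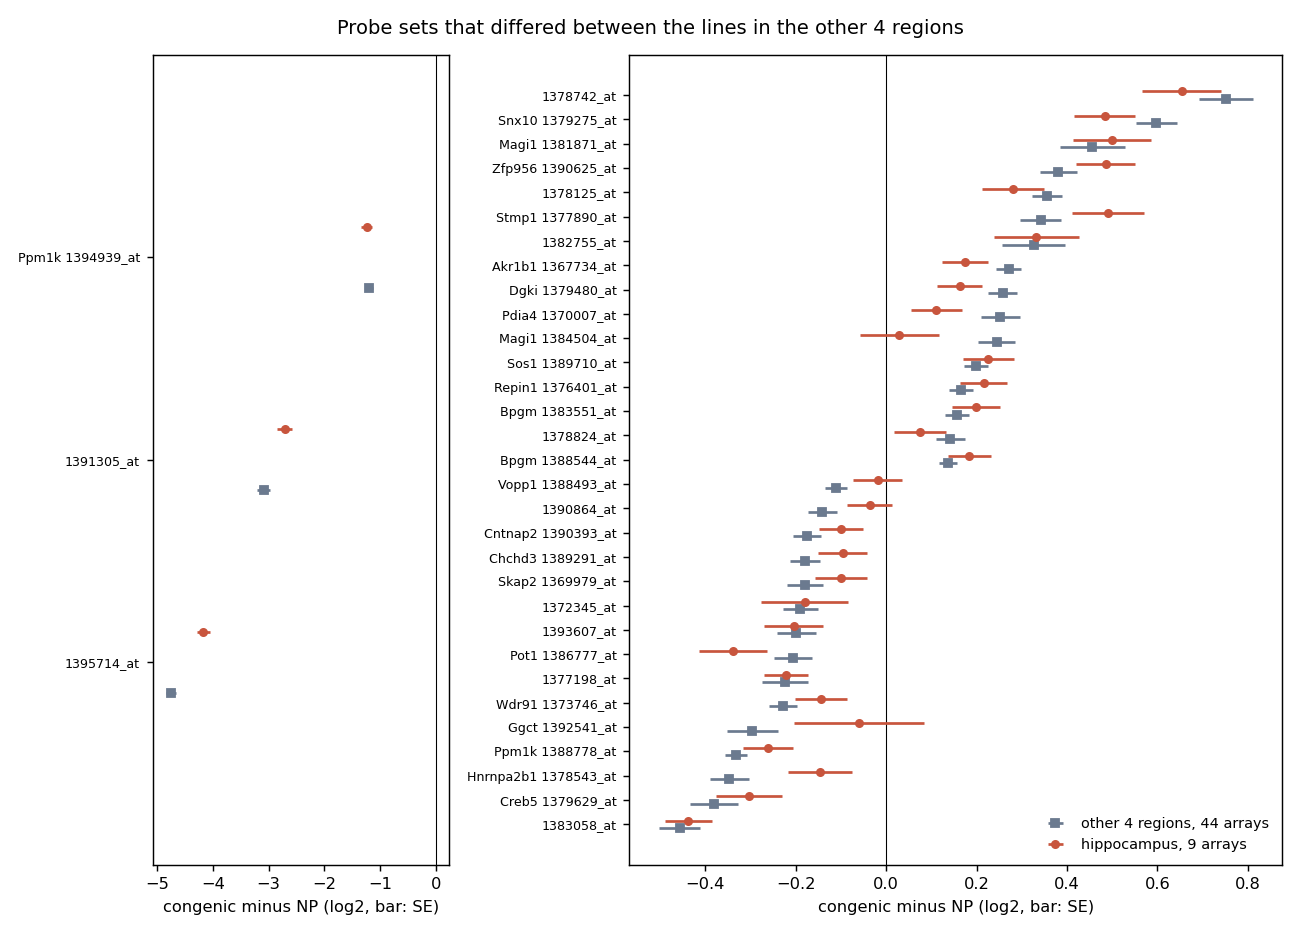
Line difference (congenic minus NP, log2, bars: SE) of the 34 probe sets that differed in the other 4 regions together, in the hippocampus (9 arrays, circles) and in the other regions (44 arrays, squares); the left panel has a wider scale. All 34 hippocampus values have the same sign as the other regions, and those of Vopp1, Magi1 1384504_at and 1390864_at lie nearest to 0.

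Gene groups of the hippocampus showed no call apart from Ppm1k and Snx10. Of the 8 measured markers of dentate granule cells 0 had an unadjusted p under 0.05 in limma, and likewise 0 of 3 markers of CA1 and 0 of 8 of CA2 and CA3 pyramidal cells, with median differences of 0.08, 0.08 and 0.01. Over all genes 9.21% had such a p, so a count of 0 in lists this small says nothing about them. Neurod1, a transcription factor of granule cells and their precursors, differed by 0.24 ± 0.14, and Prox1 by 0.11 ± 0.12. Of 7 genes of adult neurogenesis, Sox2, which marks neural stem cells and astrocytes, had an unadjusted p under 0.05 (0.16 ± 0.07), and Dcx, a marker of young neurons, differed by 0.02 ± 0.06. Of 12 ionotropic glutamate receptor subunits, the AMPA receptor subunit Gria4 was at 0.20 ± 0.07 without overlap and the NMDA receptor subunit Grin2b at -0.14 ± 0.06. Of 15 GABA genes 10 were lower and 5 higher, with the receptor subunits Gabrd at -0.12 ± 0.05 and Gabrb2 at -0.28 ± 0.12. All adjusted p-values of these genes were at or above 0.631, and in bulk tissue fewer cells of a type and less RNA per cell cannot be told apart.

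Immediate early genes, which neurons switch on after activity, had the most genes with an unadjusted p under 0.05 among the pathway lists. Of 13 measured, 4 were lower and 1 higher at that level, with a list median of -0.11, and none was called. Over all genes the count was 956 of 10378 (9.21%), 553 higher and 403 lower. Egr2 read 7.80 to 8.03 in NP and 7.17 to 7.68 in congenic rats, without overlap (-0.47 ± 0.10, limma adjusted p = 0.530). Dusp1, Arc and Nr4a1 differed by -0.36 ± 0.12, -0.25 ± 0.09 and -0.27 ± 0.11, and Homer1 by 0.21 ± 0.07, all with overlap. Fos was at -0.11 ± 0.06.

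Markers of choroid plexus and blood were lower in congenic rats, without a call. All 6 measured markers of the choroid plexus, the tissue that makes cerebrospinal fluid and lies against the hippocampus, were lower in congenic rats, with a median difference of -0.46. Folr1, its folate receptor, read 11.00, 12.14, 11.17 and 11.93 in NP and 9.43, 8.30, 11.32, 11.11 and 10.17 in congenic rats (-1.49 ± 0.52, limma adjusted p = 0.631). The mean of the 6 markers was 11.23 to 11.72 in NP and 9.74 to 11.40 in congenic rats, lowest in congenic 2. Of these markers, Slc13a4 and Aqp1 lie on chromosome 4 (-0.71 ± 0.38 and -0.37 ± 0.17). The 3 measured blood genes were lower too, with Alas2 at -0.35 ± 0.10 and the globin Hbb at -0.33 ± 0.11. The mean of the blood genes was 10.317 to 10.590 in NP and 10.056 to 10.316 in congenic rats, narrowly without overlap. Of the other marker lists, 7 of 11 genes of the meninges and 10 of 13 of myelin and oligodendrocytes were higher, with medians of 0.10 and 0.03, while 9 of 12 of interneurons were lower, with a median of -0.09. Of 9 markers of amygdala and hypothalamus 1 was higher and 3 were lower at an unadjusted p under 0.05 (list median -0.06), and of 9 of cortical layers 1 was higher and 2 were lower (median -0.11). The mean levels of both these lists overlapped between the lines, at 8.48 to 8.63 in congenic and 8.54 to 8.58 in NP rats and at 9.31 to 9.47 and 9.36 to 9.47. The part of other tissues in the differences between the lines was not tested.

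Counts in other pathway lists are read against the 9.21% of all genes with an unadjusted p under 0.05. The stress axis of CRF and glucocorticoids had 0 of 9 (limma, median 0.00), with the glucocorticoid receptor Nr3c1 at 0.07 ± 0.06 and Fkbp5, which that receptor switches on, at 0.14 ± 0.09. Of 23 genes of cyclic AMP and CREB signalling 1 had such a p, Creb5. Of 14 genes of ethanol and aldehyde metabolism 1 did, Akr1b1, with the aldehyde dehydrogenase Aldh1a1 at 0.14 ± 0.08 and catalase, Cat, at 0.13 ± 0.08. Of 9 diacylglycerol kinases Dgki and Dgkh did (0.16 ± 0.05 and 0.25 ± 0.09). Of 3 synucleins and of 4 neurotrophin genes 0 did, with Bdnf at -0.04 ± 0.05. Beside that share, such counts in short lists say nothing about the list.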

How the data were processed

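RNA of 5 brain regions from 12 rats, 6 per line, had been labelled with biotin by the Enzo kit, 1 array per rat and region, per the labels' protocols. The authors deposited log2 values of 31099 probe sets on 60 Affymetrix rat arrays; their background correction, normalization and summary were not given in the sources used here, and the scale was read from the range of the values (4.58 to 16.01).

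The 57 control probe sets were left out. Probe sets with a mean over the 60 arrays at or above the 40th percentile (7.68) were tested, 18625, of which 14030 carry 1 gene symbol (10378 genes). Over all 31042, 20826 carry 1 symbol, 436 several and 9780 none in the probe table; 20758 were found in RefSeq's GRCr8 table, used for names, chromosomes and gene order. Differences were fitted with limma 3.58.1 in R 4.3.3 (linear model, empirical Bayes, 2-sided, Benjamini-Hochberg). The contrast with other regions used 53 arrays, with the animal as a fixed block and 7 arrays that stand apart left out; the fit over the other 4 regions had the animal as a random block (correlation 0.0802). Figures used matplotlib 3.10.9 in Python 3.11.15.

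Array numbers pair the regions of 1 rat and never rats of different lines. No 2 hippocampus arrays held identical values (highest correlation 0.996). Simulated data had the same arrays, independent noise and 100 probe sets changed at each size. The hippocampus fit recovered 87% of probe sets changed by 0.5 log2 units and 98% of those changed by 1, with 13 false calls. The contrast with other regions recovered 88% and 98%, with 11. An adjusted p is easier to pass where more probe sets change, and the real fit called 7. These shares therefore do not give the recovery in the real data, where Stmp1 (0.49) and Magi1 (0.50) were not called.

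The arrays, the 31 gene lists and the named genes were chosen with earlier results of these data known. Named were the called probe sets, the 10 highest and 10 lowest chromosome 4 genes with an unadjusted p under 0.05, genes known from the mean over regions, up to 3 genes per list, the 10 of smallest p against the other regions, and genes of neuropeptide Y. Further list members, the probe sets called in the other regions and genes called in alternatives only were named after their values were seen. One probe set per gene, that of smallest p, stands for it in counts. A pair of further genes of the rule carry no probe set with 1 symbol. Alternatives covered arrays, filter, normalization, prior, test, threshold, block and leaving out each array.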

Additional observations from a re-analysis of the deposited data

Results flagged for a closer look

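Among 174 groups of 4 or 5 arrays, 15 held an array far from the others of its line; chance gives about 1 in 20. Congenic 9 was that array 6 times. It was lowest at 1383058_at (10.10, others from 10.26), at the second Ppm1k probe set 1388778_at (10.12, others from 10.29), at Tcaf1 (9.20, others from 9.53) and at Ggct (8.00, others from 8.58). It was highest at 1382755_at (12.01, others up to 11.64) and at Cd9 (12.56, others up to 12.21).

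NP 5 was apart 3 times, highest at 1377198_at (8.76, others up to 8.69) and at Pdia4 (9.65, others up to 9.45), and lowest at Sos1 (10.64, others from 10.76). Of the other arrays, congenic 10 was lowest at Pot1 (8.33, others from 8.52), NP 7 highest at 1393607_at (8.49, others up to 8.23) and NP 6 highest at Aif1 of microglia (9.01, others up to 8.93). Congenic 2 was highest at Aldh1l1 of astrocytes (10.56, others up to 10.44), congenic 4 highest at Gria4 (8.85, others up to 8.68) and congenic 1 lowest at Cx3cr1 of microglia (8.50, others from 8.71).

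The remaining signals lie on arrays that the comparison did not use. The mean of the medium spiny neuron markers was 10.42 on the array labelled congenic 3 and 11.62 on that labelled NP 8, against 8.69 to 8.90 on the 9 arrays. The mean of the amygdala and hypothalamus markers was 10.13 on the array labelled congenic 3, against 8.48 to 8.63.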

How the results depend on the processing

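The 7 calls of the hippocampus, 3 of them on chromosome 4, became 1 and 0 on all 12 arrays, 4 and 2 with congenic 3 put back, and 3 and 0 with NP 11 put back. With a filter at the 60th percentile they became 3 and 1, with 1395714_at, 1383058_at and Snx10 called. The other called probe sets fell below that filter and were not tested, so their loss there is not a failed test. In a test against a 1.2-fold difference they also became 3 and 1, with 1395714_at, 1391305_at and Ppm1k called. With the animals above 8 as a covariate 5 and 1 remained. With the animal as a random block over all regions (replicate block) there were 12 and 6, the 7 calls among them, with Stmp1, Rbm27, Bpgm, Lgals3bp and the second Ppm1k probe set added; the contrast with the other regions had 0 calls with the animal as a random block and without an animal term. Without any filter there were 10 calls. Leaving out 1 array in turn gave 3 to 12 calls, 1 to 3 on chromosome 4. The contrast had 0 calls in each of its alternatives, with a smallest adjusted p of 0.0575 without congenic 9 and 0.0576 without NP 12.

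Only differences that were not called turned their sign. On all 12 arrays, with array weights and with congenic 3 put back, Pmch was at 0.86, 0.12 and 0.88 and Npy5r at -0.045, -0.017 and -0.069. Gabrb2 was at 0.12 on all 12 arrays and at 0.052 with NP 11 put back, Fezf2 at 0.16 with NP 8 put back, 1372345_at at 0.054 with congenic 3 put back, Ggct at 0.034 with array weights, Vopp1 at 0.0093 with congenic 3 put back, and Magi1 1384504_at at -0.029 with NP 8 put back. Leaving out 1 array, Npy5r ranged from -0.0023 to 0.095, Ggct from -0.12 to 0.080, Vopp1 from -0.042 to 0.011 and Magi1 1384504_at from -0.034 to 0.11. The causes were not tested. Signal over background is not known for these values, and 4 and 5 animals limit the precision.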
